A study of Rattus norvegicus with 14 samples.

Results

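The inflammatory chemokines Ccl2, Ccl3, Ccl4, Ccl5, Cxcl1, Cxcl2 and Cxcl10 and the chemokine receptor-like gene Ccrl2 were followed in rat peripheral blood mononuclear cells (PBMC), the lymphocytes and monocytes of blood. The genes were chosen by their symbols in the array's annotation. Each of the 8 was matched by 1 probe set, out of 31042 non-control probe sets and 14217 annotated genes in all. All 8 probe sets passed the filter on low signals and were tested.

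The animals were female Wistar rats from the second experiment of the study, and their age is not given in the labels. The 14 arrays fell into 5 groups. MTXMS_A rats carried collagen-induced arthritis (CIA), in which injected bovine type II collagen in Freund's adjuvant provokes joint disease like that of rheumatoid arthritis, and were sampled after 34 days of both methotrexate, a folate antagonist used against arthritis, and mechanical stimulation by an inserted and rotated needle (n = 3). MS_A rats had CIA and received the stimulation alone for 34 days (n = 3), and CIA_B rats had CIA and were sampled before therapy (n = 2). NOCIAMS_A rats were healthy and received 34 days of stimulation (n = 3), and NOCIA_B rats were healthy and sampled before therapy (n = 3). The labels call these groups MTXAP, AP, RA, HAP and NORA, with acupuncture as the therapy. Rats were killed at sampling, so every array is a different animal. All rats sampled at day 34 had been stimulated, so time and therapy cannot be told apart in a comparison of a later with an earlier group.

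Chemokines are small secreted proteins that draw leukocytes along a gradient to a site of injury or infection. The CC family members Ccl2 to Ccl5 mainly attract monocytes, T cells and natural killer (NK) cells, while Cxcl1 and Cxcl2 attract neutrophils through the receptor Cxcr2 and Cxcl10 attracts activated T cells through Cxcr3. Ccrl2 resembles a chemokine receptor but is not known to signal, and it holds the attractant chemerin at the cell surface. Monocytes make most of these chemokines when the transcription factor NF-kappaB is activated, and Ccl5 is a product of resting memory T cells and NK cells as well.

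The promoters of 4 of the 8 genes were found in the RefSeq table of the assembly GRCr8, and those of the other 4 were not. They are shown because NF-kappaB drives inducible chemokine transcription. Cxcl1 (chr14:17479322-17479441, minus strand), Cxcl2 (chr14:17467256-17467375, minus strand), Cxcl10 (chr14:15988816-15989065, plus strand) and Ccrl2 (chr8:119914974-119915093, minus strand) are given up to the base before the annotated start. Capitals mark matches to the NF-kappaB consensus and, in Cxcl10, also to the interferon-stimulated response element (ISRE, searched as GAAANNGAAA) and to AP-1 (searched as TGANTCA).
Cxcl1: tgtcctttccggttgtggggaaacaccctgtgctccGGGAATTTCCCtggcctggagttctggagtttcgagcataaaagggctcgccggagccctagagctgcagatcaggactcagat
Cxcl2: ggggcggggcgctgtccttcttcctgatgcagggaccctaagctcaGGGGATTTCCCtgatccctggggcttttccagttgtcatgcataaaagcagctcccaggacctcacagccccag
Cxcl10: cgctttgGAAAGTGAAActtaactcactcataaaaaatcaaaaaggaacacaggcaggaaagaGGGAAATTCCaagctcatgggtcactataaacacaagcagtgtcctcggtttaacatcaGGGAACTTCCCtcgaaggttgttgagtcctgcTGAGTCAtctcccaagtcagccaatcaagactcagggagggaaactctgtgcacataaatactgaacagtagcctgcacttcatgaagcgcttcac
Ccrl2: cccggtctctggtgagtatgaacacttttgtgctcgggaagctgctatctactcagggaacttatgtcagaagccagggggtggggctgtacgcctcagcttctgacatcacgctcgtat

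The NF-kappaB consensus, searched on both strands in the 250 bases before the start, matched 84 to 74 bases before the start of Cxcl1 and 74 to 64 bases before that of Cxcl2. In both, the matches overlap each other and form 1 site of capitals. Cxcl10 held a match 187 to 178 bases before its start and overlapping matches 128 to 118 bases before it, with AP-1 at 96 to 90 and the ISRE at 243 to 234. None of the 3 motifs matched in the window of Ccrl2. Of 33469 rat promoters of this length 6.325% held the NF-kappaB consensus, 6.34% AP-1 and 3.406% the ISRE. A match describes the letters only, and binding was not measured here.

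Signals are given as log2 of the deposited intensity, on which 1 unit is a 2-fold difference, and levels of different probe sets are not compared with each other. The median signal of an array lay between 6.70 and 7.22 log2 units, and a probe set at or below it on more than 7 of the 14 arrays was called near background. Ccl3, Ccl4, Ccl5 and Ccrl2 were above the array median on 14 of 14 arrays, Cxcl2 on 13, Cxcl1 on 9 and Ccl2 on 8. Cxcl10, above it on 4 arrays, was the single member near background. Against the 95th percentile of 23 genes that PBMC should not express, such as liver and heart genes, Ccl3, Ccl4 and Ccl5 were above on 14 arrays, Cxcl2 on 13, Ccrl2 on 12, Cxcl1 on 7, Ccl2 on 6 and Cxcl10 on 1.

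**Figure D1:**
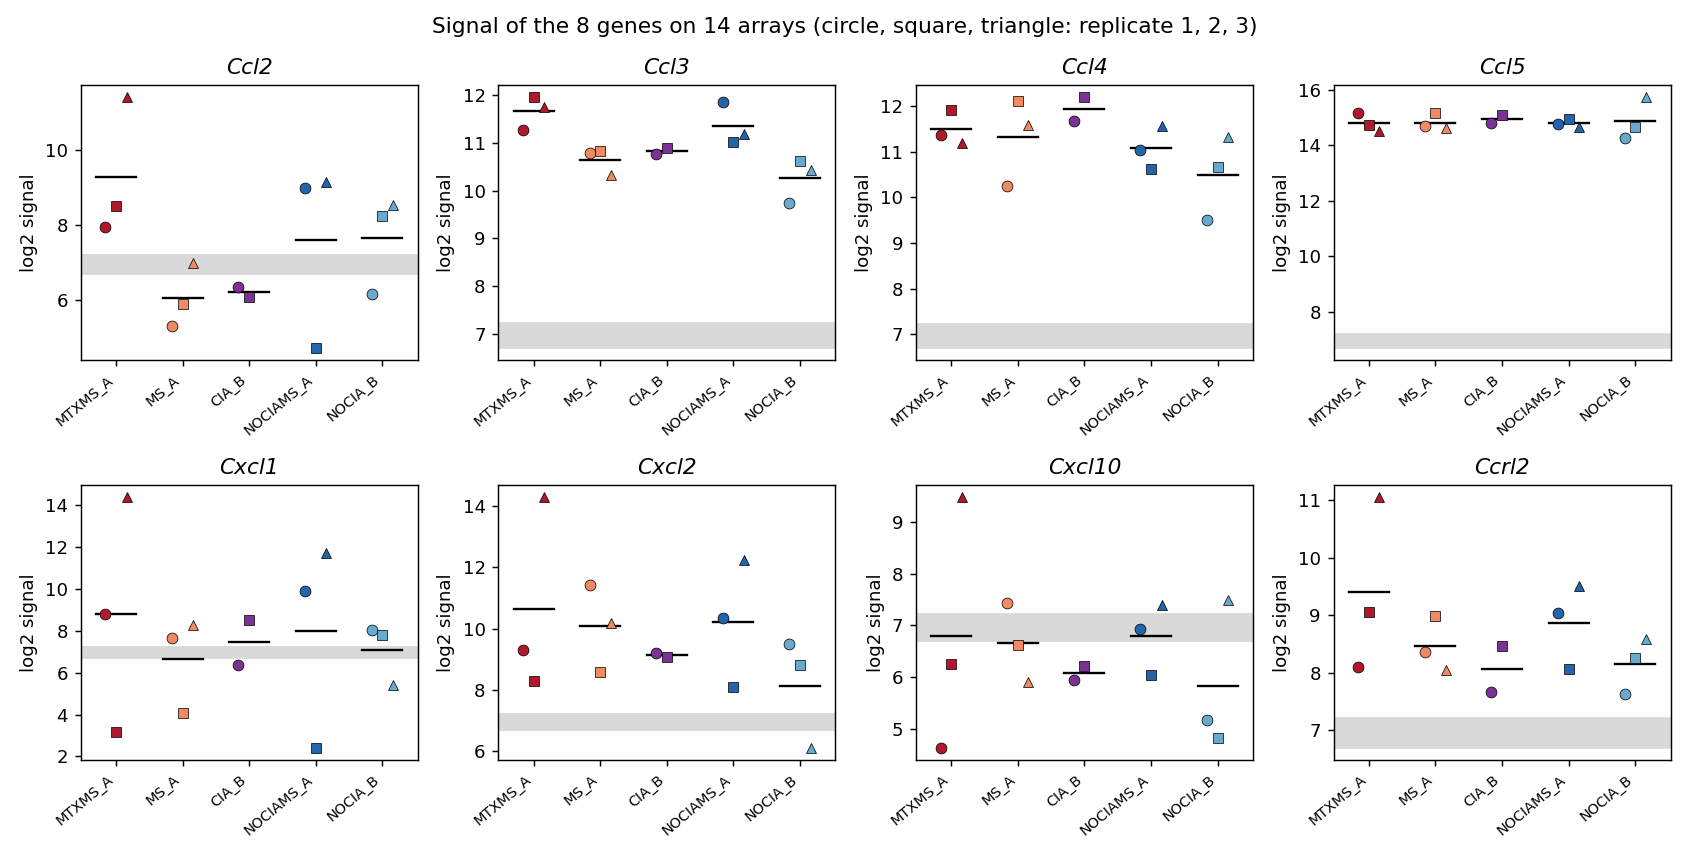
Log2 signal (vertical axis) of each gene on every array in the 5 groups (horizontal axis); circles, squares and triangles are replicates 1, 2 and 3, black bars are group means and the grey band spans the array medians. Ccl3 lay between 11.28 and 11.96 in MTXMS_A, above all arrays of MS_A, while MTXMS_A replicate 3 was the highest array for Ccl2, Cxcl1, Cxcl2, Cxcl10 and Ccrl2.

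A pair of arrays stood apart from the rest over all genes. MTXMS_A replicate 3 and NOCIA_B replicate 3 had the lowest mean correlations with the other arrays, 0.882 and 0.856, where the rest lay between 0.912 and 0.934. On MTXMS_A replicate 3 the actin signal at the 3' end over that at the 5' end, a measure of RNA integrity, was also the highest, with 5.01 against 1.97 to 4.36 on the others. The summed signal of the erythroid markers with a probe set, 5 of 7 genes, was 11.26 on that array and at least 15.40 on the others. T cell markers (7 of 7), monocyte markers (7 of 8), NK cell markers (6 of 6) and B cell markers (3 of 5) had probe sets. So did platelet markers (7 of 8) and neutrophil markers (5 of 8). All of these genes passed the filter on low signals, and detection calls were not used.

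No member was called in any comparison. limma called 0 of 18515 probe sets (0.0%) in each of the 6 comparisons and in the contrast of stimulation in arthritic with stimulation in healthy rats (MS_A over CIA_B minus NOCIAMS_A over NOCIA_B), while 999 to 2746 probe sets reached an unadjusted p of 0.05. The lowest adjusted p of a member in limma was 0.20, and over all the alternatives run it was 0.11. The values below are therefore descriptions. Unadjusted p-values are limma's, and the thresholds of the study's methods are an unadjusted p of 0.05 with a fold of 2. The study also removed probe sets by their detection calls, and that step was not applied here.

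Ccl3, also named MIP-1alpha, attracts monocytes and T cells. It had the clearest separation of groups. Its log2 signal was 11.28, 11.96 and 11.76 on the MTXMS_A arrays, 10.79, 10.83 and 10.33 on the MS_A arrays and 10.77 and 10.89 on the CIA_B arrays. In healthy rats it was 11.85, 11.02 and 11.18 in NOCIAMS_A and 9.74, 10.62 and 10.44 in NOCIA_B. Ordered by mean, MTXMS_A (11.67) was followed by NOCIAMS_A (11.35), CIA_B (10.83), MS_A (10.65) and NOCIA_B (10.27). The arrays of neighbours in that order overlapped except for those of NOCIAMS_A and CIA_B.

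Under methotrexate with stimulation all 3 Ccl3 values lay above all 3 of stimulation alone, with a log2 fold change of 1.01 ± 0.30 (SE; unadjusted p = 0.00542, adjusted p = 0.20 in limma). Ccl2 was the other member without overlap in that direction, and 12.1% of all tested probe sets had none in that direction. The same 3 values lay above both CIA_B values, with 0.83 ± 0.33 (SE; unadjusted p = 0.0283, adjusted p = 0.922), where 9.27% of probe sets, and among the members Ccl2 and Ccl3, were higher without overlap. MS_A against CIA_B gave -0.18 ± 0.33 (SE), with overlapping arrays. No member was free of overlap there, against 35.9% of probe sets in either direction.

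In healthy rats Ccl3 was higher after stimulation than before, by 1.09 ± 0.30 (SE; unadjusted p = 0.0035, adjusted p = 0.747). Its groups did not overlap, as for 6.79% of probe sets in that direction, and no other member did so. Stimulated arthritic rats (MS_A) had lower Ccl3 than stimulated healthy rats (NOCIAMS_A), with -0.70 ± 0.30 (SE; unadjusted p = 0.0371, adjusted p = 0.81) and no overlap, as for 10.8% of probe sets in that direction. The difference with stimulation in arthritic rats minus that in healthy rats was -1.27 ± 0.45 (SE; unadjusted p = 0.0154, adjusted p = 0.36). At the thresholds of the methods 4.81% of probe sets were lower in that difference, and Ccl3 was the single member among them.

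Leaving out each array in turn kept the sign of the 7 Ccl3 values. The difference of MTXMS_A from MS_A ranged from 0.86 to 1.21 and that of NOCIAMS_A from NOCIA_B from 0.82 to 1.26. Without MTXMS_A replicate 3 the difference from MS_A was 0.97. The difference of MS_A from NOCIAMS_A moved to -0.45 without NOCIAMS_A replicate 1, with an unadjusted p of 0.169. Over the same groups the summed monocyte markers ran from 15.36 to 16.02 in MTXMS_A and from 15.77 to 15.96 in MS_A. Gene by gene, the median log2 fold change of the 7 tested monocyte markers there was -0.74, and 1 of them was above 0. In NOCIAMS_A against NOCIA_B their median was 0.62, and all 7 were above 0. The summed neutrophil markers ran from 14.93 to 15.61 in NOCIAMS_A and from 13.87 to 15.0 in NOCIA_B. The part of monocytes and neutrophils in the Ccl3 values was not tested. In such bulk samples more cells of a type and more RNA per cell cannot be told apart.

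The measure of RNA integrity moved with Ccl3. The actin 3' to 5' ratio was 3.15, 3.13 and 5.01 in MTXMS_A, 2.62, 2.44 and 2.69 in MS_A and 2.83 and 2.77 in CIA_B, so that it was higher in MTXMS_A than in either without overlap. In healthy rats it was 4.36, 3.35 and 4.13 in NOCIAMS_A and 3.01, 2.68 and 1.97 in NOCIA_B, again without overlap, and MS_A lay below NOCIAMS_A. In each of these 4 comparisons Ccl3 was separated in the same direction as the ratio, and the part of RNA integrity in the Ccl3 values was not tested. In CIA_B against NOCIA_B the ratios overlapped. Of the cell markers, Ncr1, an activating receptor of NK cells, was 7.43, 7.61 and 7.78 in MTXMS_A and 9.12, 10.18 and 10.27 in MS_A, at -2.25 ± 0.54 (SE; unadjusted p = 0.00146, adjusted p = 0.186 in limma). Fcgr1a, a monocyte Fc receptor, differed by -1.09 ± 0.48 (SE; unadjusted p = 0.042) there. The summed NK cell markers ran from 14.16 to 14.85 in MTXMS_A and from 14.43 to 15.66 in MS_A, and their part in the values of the members was not tested either.

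Ccl4, or MIP-1beta, is a close relative of Ccl3. Before therapy it was 11.67 and 12.19 in CIA_B rats and 9.50, 10.66 and 11.33 in NOCIA_B rats. Both arthritic arrays lay above the healthy ones, with a log2 fold change of 1.43 ± 0.58 (SE; unadjusted p = 0.0306, adjusted p = 0.583). Ccl3 was separated in the same direction, with 0.57 ± 0.33 (SE), as were 11.7% of all probe sets, and 0.848% were higher at the thresholds of the methods. The Ccl4 value was 0.94 without NOCIA_B replicate 1 (unadjusted p = 0.12), 1.17 without CIA_B replicate 2 (unadjusted p = 0.152) and 1.85 without NOCIA_B replicate 3.

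Cell markers differed between these groups too. The summed neutrophil markers were 15.22 and 15.29 in CIA_B and 13.87 to 15.0 in NOCIA_B, without overlap, and T cell markers were 15.74 and 15.97 against 15.25 to 15.84. Platelet markers summed to 16.01 and 16.49 in CIA_B and to 16.58 to 18.10 in NOCIA_B, and 5 of the 7 genes were lower at the thresholds of the methods, against 3.83% of all probe sets. Their part in the Ccl4 value was not tested.

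After therapy Ccl4 was 11.38, 11.92 and 11.20 in MTXMS_A, 10.25, 12.12 and 11.59 in MS_A and 11.04, 10.62 and 11.56 in NOCIAMS_A. The arrays of the groups overlapped in each comparison of a later with an earlier group. MTXMS_A differed from CIA_B by -0.44 ± 0.58 (SE), MS_A from CIA_B by -0.61 ± 0.58 and NOCIAMS_A from NOCIA_B by 0.58 ± 0.52. The first pair of comparisons shares the CIA_B arrays. The difference between stimulation in arthritic and in healthy rats was -1.19 ± 0.78 (SE; unadjusted p = 0.155).

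Ccl5, or RANTES, is stored and secreted by memory T cells and NK cells. It was the steadiest member, between 14.27 and 15.72 on the 14 arrays, with both extremes among the NOCIA_B rats. Its group means were 14.80 ± 0.34 in MTXMS_A, 14.81 ± 0.30 in MS_A, 14.94 ± 0.22 in CIA_B, 14.79 ± 0.14 in NOCIAMS_A and 14.88 ± 0.75 in NOCIA_B (SD, n = 2 in CIA_B and otherwise 3). The largest of its log2 fold changes over the 6 comparisons was 0.14 in size, against standard errors of 0.34 to 0.37. Without NOCIA_B replicate 3 the difference of CIA_B from NOCIA_B became 0.49.

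Ccl2, or MCP-1, attracts monocytes through Ccr2. It was 7.96, 8.51 and 11.42 in MTXMS_A, 5.30, 5.90 and 6.98 in MS_A and 6.35 and 6.09 in CIA_B. The MTXMS_A arrays lay above all of the others, and 4 of the 5 arrays of MS_A and CIA_B were below the array median. The 5 values lay under 7.12, the lowest 95th percentile of the genes PBMC should not express on any array, so the fold changes of Ccl2 are set against signals at background level and their size is uncertain. The log2 fold change was 3.23 ± 1.19 (SE) of MTXMS_A over MS_A (unadjusted p = 0.0189, adjusted p = 0.263) and 3.07 ± 1.33 (SE) over CIA_B (unadjusted p = 0.0394, adjusted p = 0.922). At the thresholds of the methods, 2.15% and 1.77% of probe sets were higher in these comparisons. With 32 added to each signal before the log, which damps low signals, the values were 2.74 ± 0.94 and 2.66 ± 1.05 (SE).

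Part of that Ccl2 difference lay on 1 array. Without MTXMS_A replicate 3 it was 2.17 ± 1.18 over MS_A (SE; unadjusted p = 0.0924) and 2.02 ± 1.29 over CIA_B (SE; unadjusted p = 0.147), still without overlap. In healthy rats Ccl2 was 8.99, 4.73 and 9.15 in NOCIAMS_A and 6.18, 8.26 and 8.55 in NOCIA_B, a spread that covered most of the range of the arthritic groups. CIA_B differed from NOCIA_B by -1.44 ± 1.33 (SE) and MS_A from NOCIAMS_A by -1.56 ± 1.19 (SE), both with overlap.

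Cxcl1 and Cxcl2, the neutrophil attractants, varied more between rats of a group than between groups. Cxcl1 was 8.81, 3.17 and 14.38 in MTXMS_A, 7.64, 4.07 and 8.26 in MS_A and 6.37 and 8.52 in CIA_B. In healthy rats it was 9.90, 2.42 and 11.71 in NOCIAMS_A and 8.03, 7.82 and 5.42 in NOCIA_B. The whole range over 14 arrays was 11.96 log2 units, and the SD within groups was 3.77. On 5 arrays Cxcl1 was at or below the array median, among them those with 2.42, 3.17 and 4.07. The size of the range, the SD and the fold changes is therefore uncertain. Cxcl1 of MTXMS_A differed from MS_A by 2.13 ± 2.71 (SE) and from CIA_B by 1.34 ± 3.03, and without MTXMS_A replicate 3 these became -0.66 and -1.45.

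Cxcl2 was 9.31, 8.28 and 14.29 in MTXMS_A, 11.44, 8.59 and 10.19 in MS_A and 9.21 and 9.09 in CIA_B. In healthy rats it was 10.34, 8.08 and 12.26 in NOCIAMS_A and 9.49, 8.80 and 6.11 in NOCIA_B. Replicate 2 of both genes was low in all 3 groups sampled at day 34, and replicate numbers mark no shared animal. The Cxcl2 difference of MTXMS_A was 0.56 ± 1.52 (SE) from MS_A and 1.48 ± 1.69 from CIA_B, and -1.28 and -0.35 without MTXMS_A replicate 3. NOCIAMS_A differed from NOCIA_B by 2.09 ± 1.52 (SE; unadjusted p = 0.193), with a range of 1.08 to 3.16 when each array was left out.

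Cxcl10, also called IP-10, is an interferon-inducible attractant of activated T cells. It was 4.64, 6.26 and 9.47 in MTXMS_A, 7.44, 6.62 and 5.90 in MS_A and 5.95 and 6.22 in CIA_B. It was 6.93, 6.05 and 7.40 in NOCIAMS_A and 5.17, 4.82 and 7.49 in NOCIA_B. Of these 14 values 10 lie at or below the array median. MTXMS_A differed from MS_A by 0.14 ± 1.04 (SE) and from CIA_B by 0.71 ± 1.16, and by -1.20 and -0.63 without MTXMS_A replicate 3.

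Ccrl2 was 8.09, 9.06 and 11.05 in MTXMS_A, 8.36, 8.98 and 8.05 in MS_A and 7.67 and 8.46 in CIA_B. In healthy rats it was 9.04, 8.06 and 9.51 in NOCIAMS_A and 7.63, 8.26 and 8.58 in NOCIA_B. The groups overlapped in all 6 comparisons. Ccrl2 of MTXMS_A was above CIA_B by 1.34 ± 0.72 (SE; unadjusted p = 0.0882) and above MS_A by 0.94 ± 0.64 (SE; unadjusted p = 0.171), and these values were 0.51 and 0.11 without MTXMS_A replicate 3. NOCIAMS_A differed from NOCIA_B by 0.71 ± 0.64 (SE).

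**Figure D2:**
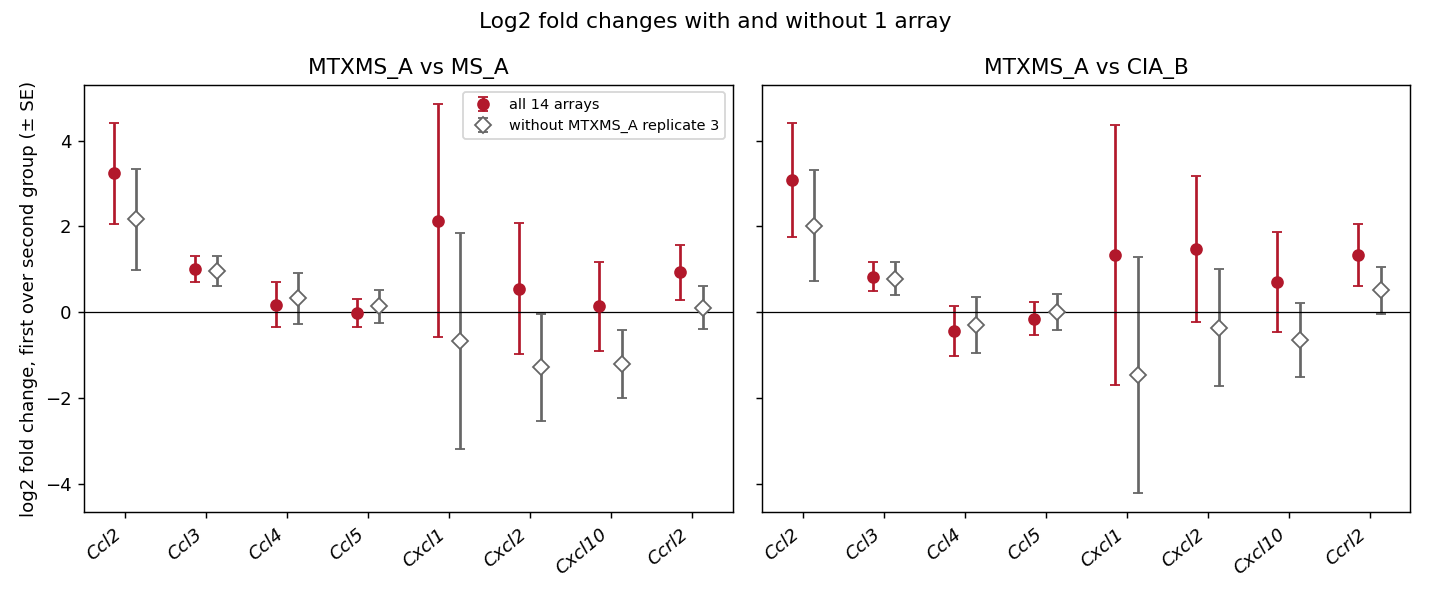
Log2 fold change (vertical axis, bars are SE) of each gene (horizontal axis) for MTXMS_A over MS_A and over CIA_B, with all 14 arrays (filled circles) and without MTXMS_A replicate 3 (open diamonds). Ccl3 gave 1.01 and 0.97 over MS_A, while Cxcl1, Cxcl2 and Cxcl10 were above 0 with that array and below 0 without it.

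A gene was said to ride on a single array where its highest array was at least 1 log2 unit above the next. The rule also covered a log2 fold change that turned, or moved by over 1.5 times, when 1 array was left out. By the gap 5 of the 8 members rode on MTXMS_A replicate 3, against 0.821% of all tested probe sets, while 11.8% had their highest value there by any margin. The gap to the next array was 2.67 for Cxcl1, 2.27 for Ccl2, 2.04 for Cxcl2, 1.98 for Cxcl10 and 1.54 for Ccrl2. The next array was NOCIAMS_A replicate 3 for 4 of the 5 and NOCIA_B replicate 3 for Cxcl10. Ccl3, Ccl4 and Ccl5 had no such gap, and their highest arrays were MTXMS_A replicate 2, CIA_B replicate 2 and NOCIA_B replicate 3. By the second part of the rule every member rode on an array in some comparison. For Ccl3 these were CIA_B against NOCIA_B, MS_A against CIA_B and MS_A against NOCIAMS_A. The fold changes of Ccl4 all moved by that much, and those of Ccl5 all turned. The low correlation, high actin ratio and low erythroid signal of MTXMS_A replicate 3 go with these 5 high values, and their part was not tested.

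**Figure D3:**
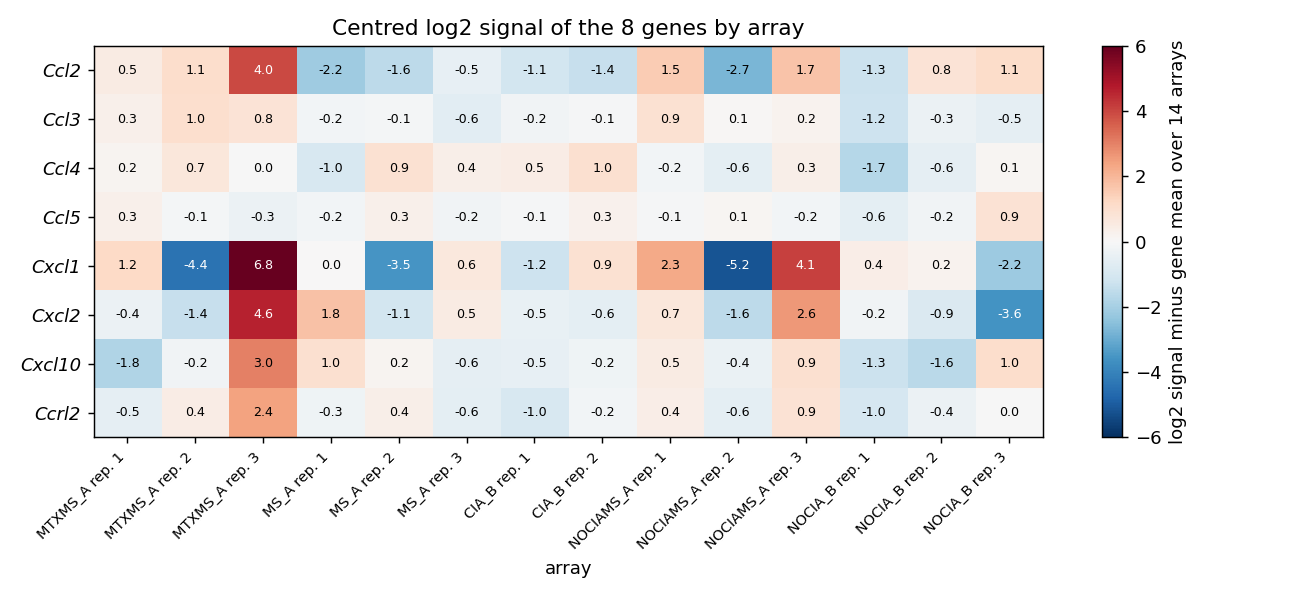
Log2 signal of each gene (rows) minus its mean over the 14 arrays, by array (columns, grouped as MTXMS_A, MS_A, CIA_B, NOCIAMS_A and NOCIA_B), on a colour scale that ends at 6 units either way. MTXMS_A replicate 3 stood 6.8 above the mean for Cxcl1 and 4.6 for Cxcl2, and at 0.8 for Ccl3.

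Genes around the members were looked at on the same array. Of 8 tested genes that act back on NF-kappaB or on mRNA decay, 6 had their highest value on MTXMS_A replicate 3, among them Nfkbia, the inhibitor of NF-kappaB, with 14.52, and Tnfaip3, the ubiquitin-editing enzyme A20, with 14.61. Ier3, an early response gene, was 12.95 there and at most 10.26 elsewhere. It was the only 1 of the 8 that was highest there by at least 1 log2 unit. Of 12 other tested chemokine ligands 5 were highest there, and Ccl24, an eosinophil attractant, reached 13.63 against at most 11.32 on the other arrays. Ccl17, a ligand of Ccr4, was 9.45 there. In the other lists 2 of 9 tested inducers, 1 of 9 receptors and decoys, 1 of 7 other chemokine receptors, 2 of 3 B cell markers and 1 of 7 monocyte markers were highest on that array, beside the 11.8% of all probe sets. Of the tested T cell, NK cell, platelet, neutrophil and erythroid markers 0 were highest there. The same held for the genes that PBMC should not express.

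Arrays with high Cxcl1 also had high Cxcl2. Over the 14 arrays Pearson's r was 0.82 (permutation p = 0.00047, adjusted p = 0.0101 over the 28 pairs of members) and Spearman's rho 0.82 (permutation p = 0.00083, adjusted p = 0.0232). The r was 0.71 without MTXMS_A replicate 3, 0.71 without the pair of arrays farthest from the median of Cxcl1, and 0.89 for deviations from the group means. Cxcl10 with Ccrl2 gave an r of 0.82 (permutation p = 0.00072, adjusted p = 0.0101) and a rho of 0.75 (permutation p = 0.0028, adjusted p = 0.0392), with an r of 0.62 both without MTXMS_A replicate 3 and without the farthest pair of arrays. Ccl2 with Ccrl2 gave an r of 0.76 (permutation p = 0.00172, adjusted p = 0.0161) and a rho of 0.62 (permutation p = 0.0207, adjusted p = 0.124), with an r of 0.55 without MTXMS_A replicate 3 and 0.53 without the farthest pair. No other pair passed the adjustment, and arrays of a group share their treatment. Cxcl10 was at or below the array median on 10 of the 14 arrays, Ccl2 on 6 and Cxcl1 on 5. These correlations therefore include signals at background level.

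**Figure D4:**
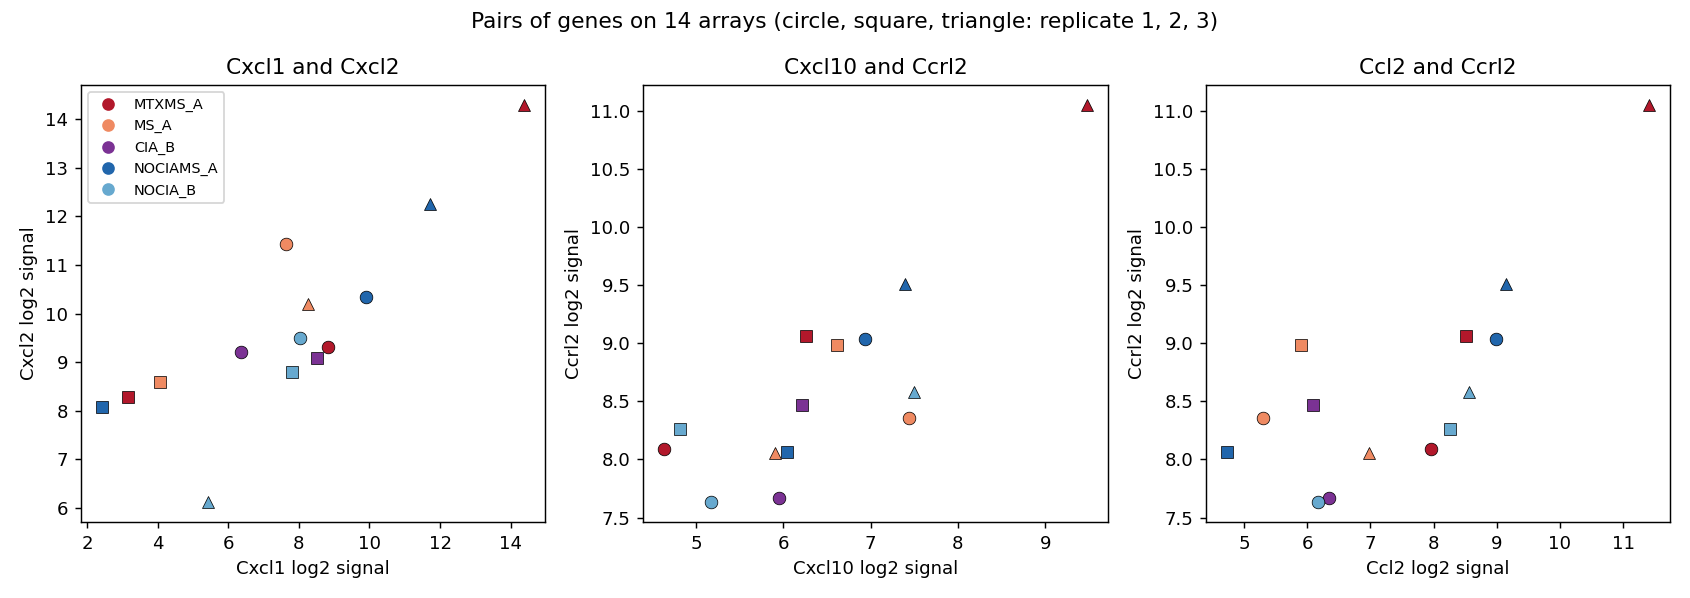
Log2 signals of Cxcl1 and Cxcl2, of Cxcl10 and Ccrl2, and of Ccl2 and Ccrl2 against each other, 1 point per array with colours for the 5 groups and shapes for the replicates. MTXMS_A replicate 3 lies at the upper right of each panel, and without it Pearson's r was 0.71, 0.62 and 0.55.

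Among 13609 tested probe sets with 1 symbol, those most like each member over the 14 arrays were named by Pearson's r, as a description. Cxcl2 ran most closely with Icam1, an adhesion molecule of activated leukocytes and endothelium (r = 0.91, and 0.83 without MTXMS_A replicate 3), followed by Chd7 and Tcf4. Ccrl2 ran with Ifitm3, an interferon-induced membrane protein (r = 0.94, and 0.86 without that array). Next were Ebi3, a subunit of interleukin 27 (r = 0.88, and 0.71), and Cdc42ep2 (r = 0.86, and 0.63). Cxcl1 ran with Rarres1, Acsl5 and Selp (r = 0.87 to 0.89), and Ccl2 with Bmp2, Timp2 and Lhfpl6 (r = 0.83 to 0.87). The genes nearest to Ccl3 were Lrpap1 (r = 0.88), Tnfaip3 (r = 0.84) and Tmbim4 (r = 0.80). Those nearest to Ccl4 were Fdft1, Med31 and Cebpd (r = 0.78 to 0.81), and those nearest to Ccl5 were Ndrg4, Eri1 and Cend1 (r = 0.90 to 0.91).

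Of the receptors and decoys that bind the members, with chemerin and its receptor, 9 of 15 genes were tested and limma called 0. At the thresholds of the methods 1 was lower, Ccr2, the receptor of Ccl2, in MTXMS_A against MS_A, where 2.35% of probe sets were lower. Ccr2 was 4.79, 7.72 and 5.30 in MTXMS_A and 7.90, 8.10 and 9.23 in MS_A, without overlap, at -2.47 ± 0.80 (SE; unadjusted p = 0.00982, adjusted p = 0.229 in limma). Its MTXMS_A mean of 5.94 lay below all array medians (6.70 to 7.22), so the size of this fold change is uncertain. The median log2 fold change of this list was 0.24 in that comparison, against -0.01 over all probe sets. The list median of the 8 members was 0.75 there and 1.08 in MTXMS_A against CIA_B, where that over all probe sets was -0.02. Without MTXMS_A replicate 3 the medians of the members were 0.12 and -0.14.

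Of the inducers of chemokine genes, 9 of 16 were tested and 2 were higher in NOCIAMS_A than in NOCIA_B at the thresholds of the methods, against 1.04% of all probe sets. Il1b, the inflammatory cytokine interleukin 1 beta, was 12.79, 11.06 and 12.08 in NOCIAMS_A and 10.04, 9.81 and 10.43 in NOCIA_B, a log2 fold change of 1.89 ± 0.62 (SE; unadjusted p = 0.0106, adjusted p = 0.747 in limma). Nfkb2, an NF-kappaB subunit, was 10.29, 8.99 and 9.38 in NOCIAMS_A and 9.13, 8.18 and 8.08 in NOCIA_B, with 1.09 ± 0.42 (SE) and overlap. Tlr2, a receptor of bacterial lipoproteins, was lower in MTXMS_A than in MS_A, at -1.39 ± 0.45 (SE; unadjusted p = 0.00909), and higher in MS_A than in CIA_B at 1.21 ± 0.50, comparisons that share the MS_A arrays.

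Of 27 other chemokine ligands 12 were tested. Cxcl3, a close relative of Cxcl1 and Cxcl2, was 8.07, 6.62 and 8.83 in MTXMS_A, 7.80, 8.0 and 7.06 in MS_A and 6.0 and 4.61 in CIA_B. It was higher in MTXMS_A than in CIA_B by 2.54 ± 0.97 (SE; unadjusted p = 0.0227) and in MS_A than in CIA_B by 2.32 ± 0.97 (SE; unadjusted p = 0.0341). These comparisons share the CIA_B arrays, and the probe set is of a kind whose probes may match other transcripts. Cxcl6, another neutrophil attractant, was 8.19, 8.07 and 7.76 in MTXMS_A, 7.73, 7.80 and 8.14 in MS_A and 3.61 and 6.82 in CIA_B, with 2.79 ± 0.76 (SE) and 2.68 ± 0.76 against CIA_B. At the thresholds of the methods 3 of the 12 were higher in MTXMS_A than in CIA_B, namely Cxcl3, Cxcl6 and Ppbp, a chemokine stored in platelets, against 1.77% of all probe sets. In MS_A against CIA_B there were 4, the same genes and Xcl1, a product of activated T and NK cells, against 2.57%. Before therapy Ppbp, Cxcl6 and Xcl1 were lower in CIA_B than in NOCIA_B by that measure, with -2.01 ± 0.63, -2.69 ± 0.76 and -2.80 ± 1.06 (SE), against 3.83% of all probe sets, and these comparisons share the CIA_B arrays. The CIA_B means of Cxcl3 (5.30), Cxcl6 (5.21) and Xcl1 (5.32) lay below all array medians (6.70 to 7.22). The size of their fold changes is therefore uncertain. Genes that PBMC should not express moved in the same directions at these thresholds. Of 8 tested, 6 were lower in CIA_B than in NOCIA_B. Against CIA_B, 3 were higher in MTXMS_A and 2 in MS_A. Platelet markers moved with Ppbp, which is itself on their list. Ppbp, Rgs18, P2ry12 and Gp9, 4 of the 7 tested, were higher in MS_A than in CIA_B at the same thresholds, and the part of platelets in these ligand values was not tested.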

How the data were processed

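PBMC RNA was hybridised to Affymetrix rat230 2.0 arrays. The authors used mas5 of the affy package to give each probe set an intensity on a linear scale, and the deposited intensities of every array have a trimmed mean of 500. All 14 arrays were used. The detection calls were not used here. Depth does not apply to arrays, and the number of arrays limits the precision. Of 31042 non-control probe sets (20826 with 1 symbol, 436 with several, 9780 with none in the annotation table), the 18515 above the array median on at least 2 arrays were tested. Log2 intensities entered a limma fit (version 3.58.1, R 4.3.3) over all 14 arrays that gave each group its own mean, with empirical Bayes moderation, two-sided tests and Benjamini-Hochberg adjustment over the probe sets tested. The methods of the study used limma with an unadjusted p of 0.05 and a fold of 2, taken here as an alternative without the study's removal of probe sets by detection calls. The scripts were tested on simulated data. Correlations used 100000 permutations (scipy 1.17.1).

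The members and gene lists were chosen with earlier results of these data known. Every member was described on all arrays. Genes of other lists were named where they reached the thresholds of the methods or stood beside a result, and for each member not near background the 3 probe sets most like it were named. Fold changes are the first group over the second. Groups hold 2 or 3 rats, and why CIA_B has 2 is not stated in the labels. Matching the labels' group names to the study's codes was done here.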

Additional observations from a re-analysis of the deposited data

How the results depend on the processing

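No member passed limma's adjusted p of 0.05 under any alternative. At the thresholds of the methods 6 of the 56 member values passed. They were Ccl4 in CIA_B against NOCIA_B and Ccl2 in MTXMS_A against MS_A and against CIA_B. The others were Ccl3 in MTXMS_A against MS_A, in NOCIAMS_A against NOCIA_B and in the difference between comparisons. Of all tested probe sets 1.87% to 4.68% passed in either direction in the 6 comparisons, and 10.2% in the difference. Of all 56 member values 27 kept their sign under every alternative, including all 7 of Ccl3, 4 of 7 of Ccl2, 5 of 7 of Ccl4 and of Ccrl2, and 0 of 7 of Ccl5 and Cxcl1. Leaving out 1 array turned MTXMS_A over MS_A for Cxcl1 (-0.66 to 4.94), Cxcl2 (-1.28 to 1.73) and Cxcl10 (-1.20 to 1.21), and MTXMS_A over CIA_B for Cxcl1 (-1.45 to 4.15), Cxcl2 (-0.35 to 2.65) and Cxcl10 (-0.63 to 1.78). The lowest value of each came without MTXMS_A replicate 3. Leaving out NOCIA_B replicate 3 too, chosen after seeing the data, could not change these 6 values, since neither comparison holds NOCIA_B arrays. Array weights turned Cxcl1 over CIA_B (-0.061) and Cxcl10 over MS_A (-0.51).

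The count of called probe sets, 0 in each comparison, was 765 with array weights and 0 to 168 with 1 array left out for CIA_B against NOCIA_B, the highest without NOCIA_B replicate 1. For MS_A against CIA_B it was 1 with no filter and 0 to 4 with 1 array left out, for MTXMS_A against CIA_B 0 to 13, both highest without CIA_B replicate 1, and for NOCIAMS_A against NOCIA_B 1 with array weights and 0 to 4, the highest without NOCIA_B replicate 2. MTXMS_A against MS_A gave 2 with array weights, 5 with no moderation and 0 to 1 with 1 array left out, and MS_A against NOCIAMS_A 1 with no moderation. The difference between comparisons gave 1651 with array weights and 0 to 980, the highest without NOCIA_B replicate 1. At the thresholds of the methods the counts were 866, 670, 423, 426, 833 and 347 for the comparisons in this order, and 1886 for the difference. The cause was not tested.

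Same-numbered arrays of different groups had a median correlation of 0.05 (-0.42 to 0.37, 26 pairs) of their deviations from the group means. Differently numbered arrays had -0.04 (-0.30 to 0.39, 52 pairs). A correlation over all tested probe sets cannot decide whether single genes share an effect of the number. With the replicate number as a block limma called 0 in every comparison. In MTXMS_A against MS_A the block lowered the SE of every member but Ccl3 and Ccl5, for Ccl2 from 1.19 to 0.96. A second probe set per gene could not be tried, since each member has 1, and the stricter filter removed Cxcl10.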
